A study of Mus musculus with 5 samples.

Results

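The mitochondrial respiratory chain and ATP synthase are built from many proteins whose genes lie in the nucleus, and the RNA of 92 such genes was followed here in pancreatic acinar cells with and without Arid1a. The 92 genes were taken by symbol from the 23284 gene symbols counted in every library, as all symbols that start with Nduf, with Sdh followed by a, b, c or d, with Uqcr, with Cox4 to Cox8, or with Atp5. By prefix they fall into 42 genes of complex I, 6 of complex II, 8 of complex III, 19 of complex IV and 17 of complex V. Of these, 81 encode structural subunits or tissue forms of subunits. The other 11 are 8 assembly or coupling factors (Ndufaf1 to Ndufaf4, Sdhaf1, Sdhaf2, Atp5s and Atp5sl), the supercomplex factor Cox7a2l, the Ndufa4 relative Ndufa4l2, and Cox4nb, a neighbour of Cox4i1 now called Emc8 that encodes no respiratory chain subunit. Ndufa4 is counted by its prefix with complex I, although its protein is now assigned to complex IV.

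Acinar cells make and secrete the digestive enzymes of the exocrine pancreas. The controls were 2 libraries from p48-Cre mice and the knockouts 3 libraries from Arid1afl/fl;p48-Cre mice, all C57BL/6 and 8 weeks old, so that Cre driven by the p48 (Ptf1a) locus is shared by both groups and the floxed Arid1a alleles are not. Arid1a encodes a subunit of the SWI/SNF chromatin remodelling complex, and p48 is active in pancreatic progenitors and acinar cells, so the deletion applies to pancreatic epithelium and not to other cells that a digest of the pancreas can carry. The labels number the libraries but do not say that each came from its own animal, so the p-values below measure only the spread between these libraries.

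Complex I takes electrons from NADH and complex II takes them from succinate, complex III passes them on to cytochrome c, complex IV hands them to oxygen, and complex V uses the resulting proton gradient to make ATP. Complexes I, III, IV and V each also hold proteins encoded in mitochondrial DNA, which are not analysed here, whereas complex II is entirely nuclear-encoded. Acinar cells rely on this ATP for protein synthesis, zymogen packaging and secretion.

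The depth of the libraries separated them exactly as the genotype did. The deposited counts summed to 291677 and 589798 in controls 1 and 2 and to 3471701, 4049215 and 3609099 in the knockouts, and Rn45s (a ribosomal RNA precursor) took 72.6% and 82.2% of the former and 6.78% to 10.9% of the latter. Values are given in CPM, for which each library was scaled to its total without Rn45s and Lars2 (a mitochondrial leucyl-tRNA synthetase whose symbol took a raised share in the same libraries). Those totals came to 67514 and 72006 counts in the controls and 3155357 to 3568906 in the knockouts. A single count was therefore worth 14.8 and 13.9 CPM in controls but 0.280 to 0.317 CPM in knockouts, and the effect of genotype cannot be told apart from whatever else differed with depth. Arid1a itself had 0 and 3 control counts and 44, 121 and 42 knockout counts, and the count of the whole gene does not check the deletion of a floxed part. The summed acinar markers took 28.0% and 34.9% of the control counts and 33.0% to 36.7% of the knockout counts, while adipocyte and endothelial markers were at 0 in both controls and reached 63.9 and 78.5 CPM in knockouts. Markers of duct, islet, leukocyte and fibroblast cells overlapped between the groups, with highest sums of 974, 809, 328 and 167 CPM, and their part in the values below was not tested. In such bulk RNA, fewer cells of a type and less RNA per cell cannot be told apart.

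The summed level of all members overlapped between the groups on the totals used here. Their summed level was 5229 and 2833 CPM in controls 1 and 2 and 4257, 5172 and 4625 CPM in knockouts 1, 2 and 3. The 2 controls thus enclosed all 3 knockouts, with 4031 ± 1694 CPM (SD, n = 2) against 4685 ± 460 CPM (SD, n = 3). The pooled knockout level was 1.18 times the pooled control level, with an exact 95% interval of 1.08 to 1.28 that covers counting error only and not the far larger spread between the controls. The log2 ratio of group means depended on the total: it was 0.22 here, 0.76 when the digestive enzymes were also left out of the total, and 2.45 on the totals of all deposited counts, Rn45s included. These sums rest on 353 and 204 control counts against 13433, 18458 and 15471 knockout counts.

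The makeup of that sum, which does not depend on the total chosen, differed between the groups for complexes I and V. Complex I genes took 26.1% and 24.5% of all member counts in controls and 38.1%, 34.6% and 39.7% in knockouts, so that every knockout lay above both controls. Complex V genes took the opposite course, with 47.6% and 33.8% in controls and 27.1%, 30.7% and 30.5% in knockouts. The exact 95% interval of control 2 for complex V, 27.4% to 40.8%, held the values of knockouts 2 and 3, and that of control 1, 42.3% to 52.9%, lay above all knockouts. Part of this came from 1 gene, Atp5e. Without it complex V took 33.0% and 31.1% against 23.8%, 28.6% and 21.3%. Complex I then took 33.3% and 25.5% against 39.8%, 35.6% and 44.9%, and the groups of both still lay apart. The shares without Atp5e rest on 276 and 196 control counts, and their counting error was not computed. Complex IV took 10.5% and 22.5% in the controls against 19.8%, 19.8% and 14.3%, so the groups overlapped, and so did those of complexes II and III. These shares were not tested.

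**Figure D1:**
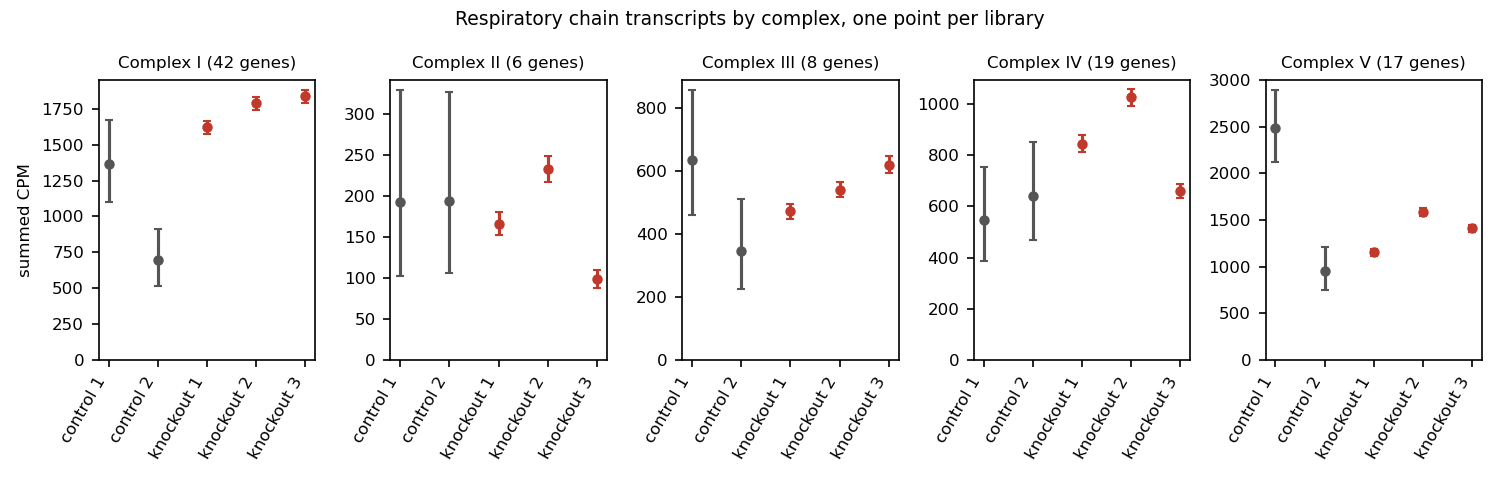
Summed CPM of the genes of each complex (vertical axis, starting at 0, a different scale for each panel) in every library, with exact 95% intervals for counting error as bars; grey points are the 2 controls and red points the 3 knockouts. Complexes I and IV lie higher in all 3 knockouts than in both controls, and in complexes III and V control 1 lies above all knockouts and control 2 below them.

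In CPM, the genes of complex I summed to 1363 and 694 in controls and to 1621, 1787 and 1836 in knockouts. The groups did not overlap, and the pooled ratio was 1.72 (95% interval for counting 1.46 to 2.04). The counting interval of control 1, 1099 to 1671 CPM, held the value of knockout 1. Complex IV summed to 548 and 639 CPM in controls and to 844, 1026 and 659 CPM in knockouts. Again the groups did not overlap, with a pooled ratio of 1.42 (1.15 to 1.79). The counting interval of control 2, 468 to 852 CPM, held the values of knockouts 1 and 3. The other complexes overlapped. Complex II stood at 193 and 194 CPM against 166, 233 and 98.7 CPM, complex III at 637 and 347 CPM against 473, 540 and 620 CPM, and complex V at 2488 and 958 CPM against 1154, 1586 and 1412 CPM. The group mean of complexes I, III and IV was higher in the knockouts on each of the 3 totals tried, but that of complex III was lower without control 2 (log2 ratio -0.23 in place of 0.15), and that of complex V was higher without control 1 (0.53 in place of -0.32). For complexes II and V the direction depended on the total: the log2 ratio of group means was -0.22 and -0.32 on the totals used here, 0.15 and 0.24 when the digestive enzymes were also left out of the totals, and 2.13 and 1.85 on the totals of all deposited counts.

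No single member passed the test. A filter on low counts kept 76 of the 92 members and 8291 genes in all, and edgeR's quasi-likelihood test called no member higher and none lower at an adjusted p under 0.05, where it called 0.193% of all tested genes higher (16 genes) and 1.6% lower (133 genes). At an unadjusted p under 0.05 there were 8 members higher, beside 1.95% of all tested genes, and 1 lower, beside 11% of all tested genes. In order of p the 8 were Ndufa6, Ndufb5, Ndufb9, Ndufb10, Ndufv2, Cox5a, Uqcr10 and Atp5g3, 5 of them of complex I, and the 1 lower was Cox8a. The smallest adjusted p among members was 0.138, for Ndufa6. DESeq2 called Ndufa6 and Ndufb5 higher (adjusted p 0.0343 and 0.0401), where it called 0.519% of all tested genes higher and 5.64% lower, and limma-voom called none, with 1 member under an unadjusted p of 0.05 beside 773 of all 8291 genes (9.32%).

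Whether members were called depended on the scaling. TMM factors computed without Rn45s and Lars2 moved the median log2 fold change of all genes from 0.22 to 1.93 and turned the calls over all genes from 16 higher and 133 lower into 147 higher and 71 lower. Under them no member was called lower, beside 0.856% of all tested genes, and 10 members were called higher, beside 1.77%: Ndufa6, Ndufb5, Ndufb8, Ndufb9, Ndufb10, Ndufv2, Uqcr10, Cox5a, Cox7b and Cox7a2l. Of these 10, Ndufb9 and Cox7a2l had 1 control count each and the other 8 had none. RLE factors gave 1 call (Ndufa6, adjusted p 0.0485, beside 0.253% of all tested genes higher and 0.977% lower), and totals that also left out the digestive enzymes gave 2 (Ndufa6 and Ndufb5, beside 0.459% higher and 3.39% lower). TMM on all symbols and upper quartile factors gave none.

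The direction of single members also hung on the scaling. On the totals used here 52 of the 76 tested members (68.4%) had a log2 fold change above 0, against 52.5% of all tested genes. Of these, 51 stayed above 0 under all 6 scalings, and Ndufaf2 was not tested under 1 of them. Only 27 of the 51 had a control count, and a member without one could only lie above 0 under any scaling. Of the 24 below 0, only Cox8a stayed below 0 under all 6, with log2 fold changes from -2.30 to -0.38. Every other value below 0 given here therefore has no fixed sign. The median over tested members was 1.39, with a median SE of 1.76, against 0.22 for all tested genes. With groups at 0 set to a floor of 3 counts, the median was 0.22 for members and -1.14 for all tested genes. There a gene without a control count falls below 0 if its knockout mean is under 21.5 CPM, so these medians also reflect expression level.

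In 39 of the 76 tested members all 3 knockouts lay above both controls, and in 5 they lay below both. Among all tested genes the shares were 35.6% and 11.2%. Of the 39, 25 had no control count, so that any knockout count put them apart. Members without a control count made up 32.9% of the tested members and 33.5% of all tested genes. By complex the 39 divide into 23 of complex I, 3 of complex II, 3 of complex III, 6 of complex IV and 4 of complex V.

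**Figure D2:**
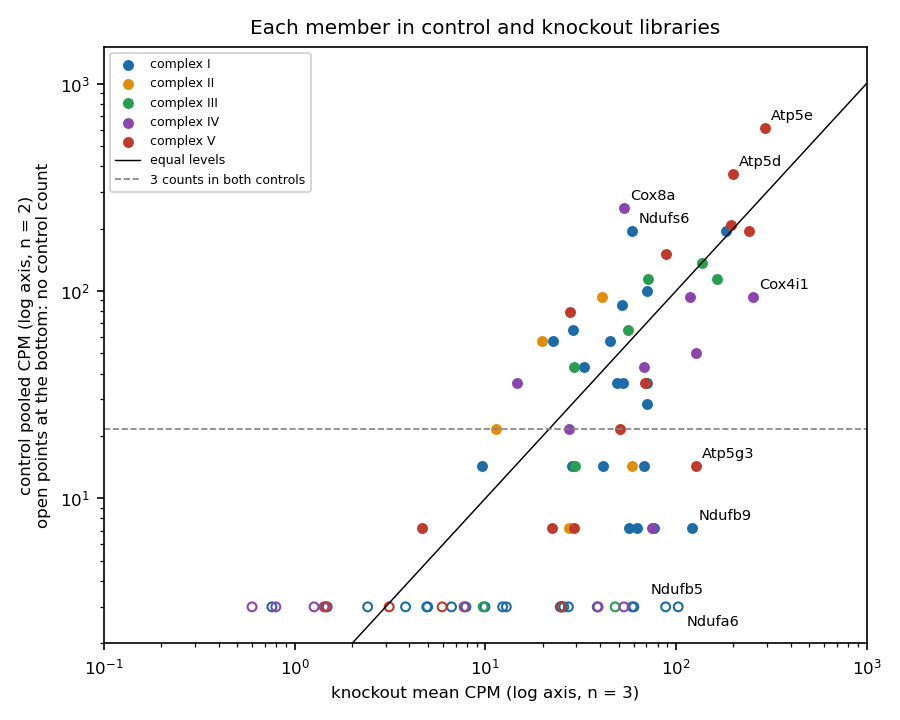
Each member's mean CPM over the 3 knockouts (horizontal, log axis) against its pooled CPM over the 2 controls (vertical, log axis), coloured by complex; open points at the bottom had no control count and have no true vertical position. The dashed line marks 3 counts in both controls together, 21.5 CPM, and filled points below the solid line are higher in the knockouts.

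Which members the controls did and did not hold can be read against the counts that the knockout levels predict for them. At the knockout mean CPM on the totals used here, 17 members would have had at least 10 counts in both controls together. Atp5a1, Ndufa2 and Uqcrq came close to prediction in both controls together, with 29, 27 and 19 counts observed against 27.2, 25.7 and 19.1 predicted. In controls 1 and 2 these were 25 and 4, 17 and 10, and 13 and 6 counts, so control 1 held most of those of Atp5a1. Under TMM factors without Rn45s and Lars2 their log2 fold changes were 1.66, 2.33 and 2.47, so this closeness depended on the scaling. Ndufa6 and Ndufb5 had no control count where 14.3 and 12.3 were predicted, and Ndufb9, Ndufb11, Cox7a2l and Atp5g3 had 1, 1, 1 and 2 where 16.9, 10.7, 10.5 and 17.7 were predicted. Cox4i1 and Cox6a1 had 13 and 7 where 35.4 and 17.9 were predicted. In the other direction Atp5e had 85 where 40.8 were predicted, Atp5d 51 where 27.8 were, and Atp5j2 21 where 12.4 were. Of the 85 for Atp5e, 77 were in control 1 and 8 in control 2. Cox8a, which is not among the 17, had 35 control counts where 7.47 were predicted. Members of similar level in the knockouts thus differed widely in the controls, within the same complex.

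In complex I, a matrix arm of core subunits carries the flavin and the iron-sulfur clusters, and accessory subunits surround it and the membrane arm. The 7 nuclear core genes summed to 88.9 and 97.2 CPM in controls, from 6 and 7 counts, and to 303, 374 and 247 CPM in knockouts. The groups did not overlap, and the pooled ratio was 3.32 (1.94 to 6.24). All 7 had a fitted log2 fold change above 0, and none passed the test. Of the 7, 3 (Ndufs1, Ndufs3 and Ndufv2) had no control count, so their fold changes could only lie above 0. The 29 accessory genes summed to 1229 and 597 CPM against 1232, 1317 and 1526 CPM, with a pooled ratio of 1.51 (1.26 to 1.81), and here control 1 came within 3 CPM of knockout 1.

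Ndufa2, an accessory subunit with a thioredoxin-like fold and the complex I member with the most counts, stood at 252 and 139 CPM in controls and at 145, 111 and 297 CPM in knockouts. The groups overlapped, and its log2 fold change was -0.08 ± 1.08 (SE, adjusted p = 0.972). Knockout 3 held more than double the level of either other knockout. Ndufs6, an accessory subunit with a zinc site at the matrix arm, had 222 and 167 CPM in controls and 43.4, 37.8 and 95.7 CPM in knockouts. It was the only tested complex I member with all knockouts below both controls, at a log2 fold change of -1.72 ± 1.15 (adjusted p = 0.537). Its sign turned under TMM and RLE factors, to 0.64, 0.69 and 0.30.

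Ndufb7, an accessory subunit on the intermembrane side, had 178 and 27.8 CPM in controls and 56.4, 56.9 and 99.0 CPM in knockouts. Ndufa3, a small accessory subunit of the membrane arm, had 148 and 27.8 CPM against 34.2, 41.7 and 79.8 CPM. In both, control 1 was the highest library and control 2, with 2 counts, the lowest, so that the controls enclosed the knockouts (adjusted p 0.822 and 0.748).

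Ndufa6, an LYR-motif accessory subunit that binds the mitochondrial acyl carrier protein, had no count in either control and 131, 122 and 54.4 CPM in knockouts, from 414, 437 and 182 counts. Its knockout mean of 103 ± 42.0 CPM (SD, n = 3) was at least 4.78-fold higher than 3 counts in both controls together, the floor used for all such bounds, and the exact 95% lower limit of the pooled ratio was 3.87. Ndufb5, a membrane-arm accessory subunit, also had no control count and was even across the knockouts, at 91.6, 88.3 and 84.9 CPM, at least 4.10-fold above the floor (adjusted p = 0.174). Part of its transcript (20.0%) overlaps Mrpl47 on the other strand, and libraries of this kind do not mark strand.

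Ndufb9, another LYR-motif subunit, had 1 control count in all and 121, 130 and 113 CPM in knockouts. Its pooled ratio of 17.0 has an exact 95% interval from 3.04 to 671, which shows how little 1 count fixes, and its adjusted p was 0.270. Ndufb10, a membrane-arm subunit, and Ndufv2, the core subunit that holds an iron-sulfur cluster next to the flavin, had no control count and knockout means of 60.1 ± 8.23 and 58.9 ± 12.8 CPM (SD, n = 3), at least 2.80-fold and 2.74-fold above the floor. Their adjusted p-values were 0.284 and 0.292. Ndufv1, its partner that binds the flavin and NADH, had 2 counts in each control, 29.6 and 27.8 CPM, and 62.8, 96.9 and 52.9 CPM in knockouts, higher in all 3 (log2 fold change 1.30 ± 1.51, adjusted p = 0.631). Ndufs1, the core subunit with several iron-sulfur clusters, had no control count and only 15, 51 and 3 counts in the knockouts, under the floor.

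Ndufa4, whose protein sits in complex IV, had 1 control count and 55.5, 59.96 and 54.4 CPM in knockouts. The pooled ratio was 7.91 (1.41 to 313; adjusted p = 0.537). Ndufa4l2, a form known to be induced by hypoxia, had 6, 8 and 1 knockout counts and none in the controls, and was not tested.

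Per length, which is the scale on which genes can be set beside each other, complex I genes covered a wide range in the knockouts. Ndufa2 stood highest, at 322 ± 173 CPM per kb (SD, n = 3), followed by Ndufa6 at 174 ± 71.3, Ndufb9 at 173 ± 12.3 and Ndufb2 at 138 ± 93.0. These ranges overlap, except those of Ndufa2 (lowest 193 CPM per kb) and Ndufb9 (highest 185 CPM per kb). The core genes named here were lower: Ndufs7 stood at 69.3 ± 12.5, Ndufv1 at 42.7 ± 13.9, Ndufv2 at 34.7 ± 7.57 and Ndufs1 at 2.57 ± 2.66 CPM per kb. Subunits that enter the complex in equal number thus differed by over 10-fold in counted RNA per kb.

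Complex II also belongs to the tricarboxylic acid cycle, where it oxidises succinate. Sdha, the flavin-binding subunit, had 163 and 27.8 CPM in controls and 26.0, 68.1 and 29.0 CPM in knockouts. Sdhb, the iron-sulfur subunit, had 29.6 and 0 CPM against 78.9, 64.2 and 32.9 CPM. Of these partners, Sdha was highest in a control and Sdhb in a knockout. The membrane anchors differed from each other as well: Sdhc had 0 and 13.9 CPM against 22.5, 41.2 and 18.2 CPM, and Sdhd had 0 and 111 CPM against 21.6, 31.9 and 5.68 CPM.

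Sdhb and Sdhc were higher in all knockouts than in both controls, while Sdha and Sdhd overlapped. With 2 and 1 control counts, the pooled ratios were 4.07 (1.12 to 33.7) for Sdhb and 3.87 (0.688 to 153) for Sdhc. The log2 fold change of Sdha was -1.21 ± 1.31 and that of Sdhd -1.50 ± 1.47, and no adjusted p of the 4 was under 0.586. The lower sum of complex II depended on single genes: the log2 ratio of group means was -0.22 with all 6 genes, 0.35 without Sdha and 0.08 without Sdhd. The assembly factors Sdhaf1, which serves the iron-sulfur subunit, and Sdhaf2, which serves the attachment of flavin to Sdha, had 3 and 0 control counts.

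In complex III, Uqcrh, the hinge protein that contacts cytochrome c1, had 148 and 83.3 CPM in controls and 160, 183 and 149 CPM in knockouts. All knockouts lay above both controls, although knockout 3 exceeded control 1 by less than 2 CPM, and the log2 fold change was 0.51 ± 1.15 (adjusted p = 0.818). Uqcrq, a small membrane subunit, had 193 and 83.3 CPM against 94.1, 73.7 and 243 CPM. Its group means were nearly equal, at 138 ± 77.2 CPM (SD, n = 2) and 137 ± 92.6 CPM (SD, n = 3), and knockout 3 was the highest library.

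Uqcrc1, a core protein on the matrix side, had 118 and 111 CPM in controls and 58.0, 109 and 46.0 CPM in knockouts, all below both controls, knockout 2 only just (log2 fold change -0.69 ± 1.21, adjusted p = 0.752). Its partner Uqcrc2 had 29.6 and 0 CPM against 30.4, 46.8 and 11.1 CPM. Uqcr11, a small accessory subunit, had 74.1 and 55.6 CPM against 37.4, 22.7 and 107 CPM, with knockout 3 above and the other two below the controls. Uqcr10, another small subunit, had no control count and 51.7, 46.2 and 46.0 CPM in knockouts, at least 2.23-fold above the floor (adjusted p = 0.347). Uqcrfs1, the Rieske iron-sulfur protein, had 74.1 and 13.9 CPM against 32.3, 46.5 and 8.37 CPM.

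In complex IV, Cox4i1, the largest nuclear-encoded subunit and the site of allosteric regulation by ATP, had the highest knockout level. It stood at 163 and 27.8 CPM in controls, from 11 and 2 counts, and at 255, 320 and 186 CPM in knockouts. All knockouts were higher, and the log2 fold change was 1.42 ± 1.16 (adjusted p = 0.582). Its transcript overlaps Cox4nb on the other strand over 17.99% of its length, where the reads of both cannot be told apart, and Cox4nb had no control count and 29, 45 and 5 knockout counts.

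Cox8a, a small membrane subunit and the ubiquitous form of subunit VIII, went the other way, with 178 and 319 CPM in controls and 57.0, 74.3 and 29.3 CPM in knockouts. The lowest control held more than double the highest knockout. The control mean was 248.6 ± 100.2 CPM (SD, n = 2) and the knockout mean 53.5 ± 22.7 CPM (SD, n = 3), a log2 fold change of -2.22 ± 1.13 (adjusted p = 0.383 in edgeR). Its transcript shares no run of 50 bases with another annotated gene and overlaps none.

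Cox6b1, which faces the intermembrane space, differed little between libraries, at 74.1 and 111 CPM against 119, 110 and 128 CPM. Cox6a1, the form of subunit VIa outside heart and skeletal muscle, had 44.4 and 55.6 CPM against 127, 153 and 104 CPM, higher in all knockouts (log2 fold change 1.35 ± 1.31, adjusted p = 0.597). Cox5a, on the matrix side, had no control count and 54.8, 74.8 and 30.2 CPM in knockouts, at least 2.48-fold above the floor (adjusted p = 0.317), whereas Cox5b, the zinc-binding subunit, had 0 and 69.4 CPM against 10.8, 21.3 and 11.7 CPM. Cox5a overlaps another annotated gene (Gm26631) on the other strand over 41.7% of its transcript.

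Of subunit VII genes, Cox7a2 had 59.2 and 27.8 CPM in controls and 55.8, 71.7 and 75.6 CPM in knockouts, and Cox7b had none in the controls and 42.5, 43.2 and 31.4 CPM in knockouts, at least 1.81-fold above the floor. The supercomplex factor Cox7a2l had 1 control count and 78.6, 108 and 37.7 CPM in knockouts, with a pooled ratio of 10.5 (1.89 to 417, adjusted p = 0.456 in edgeR). Cox7c is a further subunit found in every tissue, yet it had 0, 0, 3, 8 and 2 counts.

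The tissue-specific forms were nearly absent. Cox6a2, Cox7b2, Cox8b and Cox8c, which belong to heart and skeletal muscle or testis, had no count in any library. A count of 0 allows up to 44.4 and 41.7 CPM in controls but only 0.841 to 0.951 CPM in knockouts, counting error alone. Cox4i2, the lung form, had 4, 4 and 0 knockout counts, Cox6b2, a testis form, 2, 2 and 2, and Cox7a1, a form of heart, muscle and brown fat, 2, 13 and 0. None of these 7 tissue forms had a control count, and none was tested. The adipocyte markers had their lowest knockout level in knockout 3 as well, 4.19 CPM against 57.0 and 63.9 CPM, most of it Fabp4, while Ucp1 had 1 count in all. Striated muscle markers were at 0 to 1.12 CPM. The part of adipocytes in Cox7a1 was not tested.

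**Figure D3:**
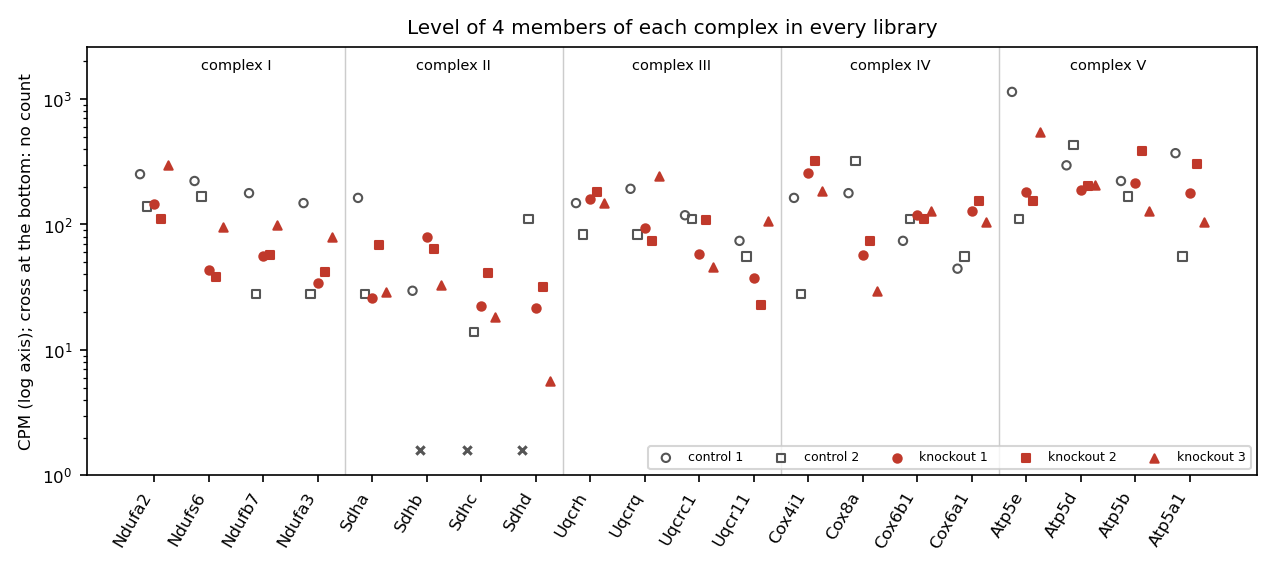
CPM (log axis) of the 4 most abundant members of each complex, with Sdha to Sdhd for complex II, in every library; open grey symbols are controls, filled red symbols knockouts, and crosses at the bottom are libraries without a count. Cox8a, Ndufs6, Atp5d and Uqcrc1 lie lower in all knockouts, Cox4i1, Cox6a1, Uqcrh, Sdhb and Sdhc higher, and the remaining genes overlap.

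Complex V consists of a catalytic F1 head and a membrane-bound Fo part joined by stalks. Atp5e encodes the epsilon subunit of the F1 central stalk and gave the highest single value of the whole set. It stood at 1141 and 111 CPM in controls, from 77 and 8 counts, and at 183, 153 and 542 CPM in knockouts. Control 1 was highest and control 2 lowest, so the controls enclosed the knockouts, and the log2 fold change was -1.09 ± 0.94 (adjusted p = 0.586). In control 1 this gene alone made up 21.8% of all member counts. Without it the genes of complex V summed to 1348 and 847 CPM against 971, 1433 and 870 CPM, with a pooled ratio of 1.01 (0.861 to 1.19) in place of 0.820 (0.721 to 0.936), and the pooled ratio of all members was 1.30 (1.19 to 1.43) in place of 1.18.

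Atp5d, the delta subunit beside it in the central stalk, had 296 and 431 CPM in controls and an even 187, 202 and 208 CPM in knockouts. All knockouts were lower, with means of 363 ± 94.95 CPM (SD, n = 2) and 199 ± 10.9 CPM (SD, n = 3), and the log2 fold change was -0.87 ± 1.01 (adjusted p = 0.633). Under TMM factors its log2 fold change was 1.23 and 1.27, so the sign turned. The catalytic beta subunit Atp5b had 222 and 167 CPM against 214, 385 and 128 CPM, and the alpha subunit Atp5a1 had 370 and 55.6 CPM against 178, 302 and 105 CPM. Both overlapped, and in both knockout 2 held the highest and knockout 3 the lowest knockout level, the reverse of Atp5e.

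The gamma subunit Atp5c1 had 3 control counts and 38.7, 74.5 and 38.6 CPM in knockouts. Alpha and beta enter the F1 head in several copies and gamma, delta and epsilon in single ones. Per length the order in the knockouts was another: Atp5e at 695 ± 513 CPM per kb (SD, n = 3), Atp5d at 214 ± 11.7, Atp5b at 126 ± 68.3, Atp5a1 at 78.9 ± 40.4 and Atp5c1 at 43.4 ± 17.8. Neighbours in this order overlapped within their SD except Atp5d and Atp5b. In the Fo part, Atp5j2 (subunit f) had 163 and 139 CPM against 67.2, 64.4 and 135 CPM, lower in all knockouts though knockout 3 came within 4 CPM of control 2, and Atp5k (subunit e) had 148 and 13.9 CPM against 16.2, 21.6 and 45.4 CPM.

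Subunit c, which forms the rotating ring of Fo, is encoded by 3 genes whose mature proteins are the same and whose import sequences differ. Nearly all its counts fell on Atp5g3, with 29.6 and 0 CPM in controls and 114, 184 and 83.7 CPM in knockouts. It was higher in all knockouts (log2 fold change 3.12 ± 1.58, adjusted p = 0.380 in edgeR), with a pooled ratio of 8.96 (2.48 to 74.1) from 2 control counts. Atp5g1 had 14.8 and 0 CPM against 2.85, 3.92 and 7.17 CPM, and Atp5g2 had no count in any library. The last 120 coding bases of the 3 genes are shown because they encode the same end of the ring protein and show how far reads of one gene can be told from those of another; capitals mark bases that differ from Atp5g3.
Atp5g3: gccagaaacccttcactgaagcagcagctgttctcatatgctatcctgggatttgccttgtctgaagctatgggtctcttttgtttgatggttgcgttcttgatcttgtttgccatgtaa
Atp5g1: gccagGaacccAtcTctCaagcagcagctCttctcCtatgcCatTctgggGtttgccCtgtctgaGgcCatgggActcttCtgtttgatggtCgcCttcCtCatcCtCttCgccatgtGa
Atp5g2: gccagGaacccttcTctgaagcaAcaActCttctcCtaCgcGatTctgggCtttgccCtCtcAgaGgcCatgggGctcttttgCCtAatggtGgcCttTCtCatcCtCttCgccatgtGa

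These are the coding bases 307 to 426 of Atp5g3, 292 to 411 of Atp5g1 and 322 to 441 of Atp5g2, stop codon included, from the GENCODE M21 transcripts of the build GRCm38, where all 3 genes lie on the minus strand, on chromosomes 2, 11 and 15. Atp5g1 differs from Atp5g3 at 22 of the 120 bases and Atp5g2 at 28, and the longest run that any 2 of the 3 share here is 21 bases, between Atp5g1 and Atp5g2, so a longer read from this stretch belongs to 1 of them. Other copies are another matter. Of all 50-base words in the Atp5g2 transcript, 100% also occur in another annotated gene (Gm10175 or Gm10231), for Atp5g1 the share is 66.0% (Gm10039, Gm12337 and Gm6612), and for Atp5g3 it is 0%. How reads with several matches were counted is not given in the sources used here, so the counts of Atp5g1 and Atp5g2 are uncertain.

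The same applies to other members that every tissue needs but that were at or near 0. Ndufs5, a complex I accessory subunit, had no count in any library while BC002163, the gene that shares 41.2% of its words, had 1 and 0 control counts and 33, 36 and 14 knockout counts. Ndufab1, the mitochondrial acyl carrier protein, had 1, 7 and 0 knockout counts and shares words with 11 other genes (31.2% of its own). Atp5l (subunit g) had 10, 19 and 3 and shares 84.8% with 14 genes, and Cox7c shares 53.0% with 3. Other members with a high share were counted: Atp5h shared 50.5% and Atp5o 34.0%, with 226 and 695 knockout counts. The part of shared words in the low counts was not tested. In all, 16 of the 92 transcripts shared more than 30% of their words with another gene and 43 shared none, and Ndufa6, Cox8a, Atp5e, Atp5d, Uqcrq and Atp5g3 were among the 43.

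Knockout 3 stood apart from the other knockouts in the length of its transcripts and in the share of digestive enzymes and granule proteins. The enzymes took 83.6% of its counts without Rn45s and Lars2, against 74.1% and 62.7% in knockouts 1 and 2 and 63.6% and 67.0% in the controls. Of all 5780 genes with a knockout mean of at least 5 CPM, 5398 lay lower in it than in the mean of knockouts 1 and 2. The part of the enzymes in the ratios below was not tested. Among the 73 members with a knockout mean of at least 5 CPM, the log2 ratio of knockout 3 to the mean of knockouts 1 and 2 had a median of 0.22 in the 18 transcripts under 600 bases, of -0.27 in the 24 from 600 to 999 bases and of -1.19 in the 31 from 1000 bases on. Across these genes its Spearman correlation with length was -0.58 (n = 73 genes of the same libraries, a description). Uqcr11, Atp5e, Uqcrq, Ndufb2, Ndufs6 and Ndufa2 had ratios of 3.56, 3.22, 2.90, 2.88, 2.35 and 2.33, and Ndufs1, Cox4nb and Sdhaf2 had 0.0942, 0.137 and 0.168. Over all 5780 genes the correlation with length was -0.24, and the medians of the same length classes were -0.44, -0.81 and -1.71, lower than those of the members in each class.

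**Figure D4:**
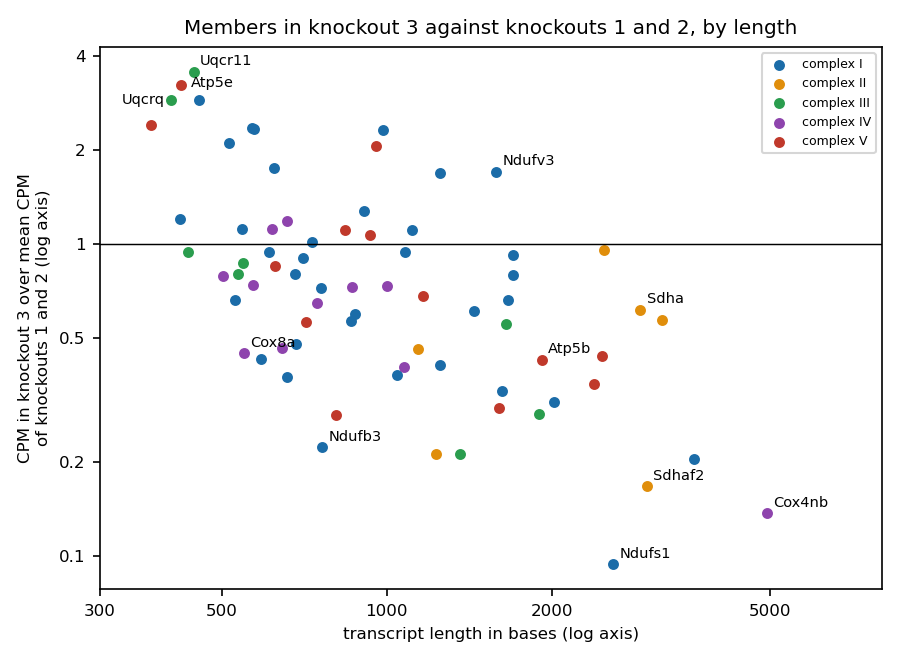
CPM in knockout 3 over the mean CPM of knockouts 1 and 2 (vertical, log axis) against transcript length in bases (horizontal, log axis) for the 73 members with a knockout mean of at least 5 CPM, coloured by complex. Short transcripts such as Uqcr11, Atp5e and Uqcrq lie above the line of equal levels, and of the 31 transcripts from 1000 bases on, 28 lie below it.

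By length class, only the middle class lay apart between the groups. The 28 members under 600 bases summed to 2711 and 1180 CPM in controls and to 1259, 1219 and 2030 CPM in knockouts, with a pooled ratio of 0.781 (0.692 to 0.885). This ratio leaned on control 1, where Atp5e gave 77 of the 183 counts of the class: without Atp5e the class summed to 1570 and 1069 CPM against 1076, 1065 and 1488 CPM. The 29 from 600 to 999 bases summed to 1141 and 1028 CPM against 1570, 1869 and 1588 CPM, without overlap and with a pooled ratio of 1.55 (1.32 to 1.84). The 35 longer ones summed to 1377 and 625 CPM against 1428, 2084 and 1007 CPM, which overlap, with a pooled ratio of 1.54 (1.30 to 1.83). Of the 5 genes with all knockouts below both controls, Cox8a and Ndufs6 are in the short class, Atp5d and Atp5j2 in the middle one and Uqcrc1 in the long one. The part of length in the values of complexes I to V was not tested.

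Many respiratory chain genes are known to be controlled by the factors NRF1, GABPA and YY1, and the promoters of the members were searched for their core motifs. RefSeq promoters of GRCm38.p6, 250 bases before to 50 after the start, were found by symbol for 76 of the 92 members. The NRF1 core, given in capitals in the first 3 windows below, stood on either strand in 6 of them (7.89%), against 1.07% of 27025 genes and 2.35% of the tested genes. The YY1 core AAGATGGC stood in 11 (14.5%), against 3.19% and 5.79%, and the GABPA core CCGGAAG in 19 (25%), against 9.93% and 21.5%. Thus 33 of the 76 held at least 1 of them, and the share for GABPA was close to that of other expressed genes. The 4 windows below are shown as examples of a motif wholly upstream of the start. Other members, such as Ndufaf4, Atp5g2 and Sdhd, also hold one there. Capitals mark the motif, for Atp5e on the reverse strand.
Atp5k NRF1 (chr5:108434415-108434474, minus strand): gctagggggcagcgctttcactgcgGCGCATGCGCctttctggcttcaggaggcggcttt
Cox6a1 NRF1 (chr5:115349086-115349145, minus strand): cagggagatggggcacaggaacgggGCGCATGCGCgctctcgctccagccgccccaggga
Ndufa11 NRF1 (chr17:56717677-56717736, plus strand): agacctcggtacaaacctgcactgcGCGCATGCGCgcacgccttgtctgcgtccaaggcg
Atp5e GABPA (chr2:174464169-174464228, minus strand): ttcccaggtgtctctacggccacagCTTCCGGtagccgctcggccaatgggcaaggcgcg

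The NRF1 motif begins 50 bases before the start of Atp5k, 162 before that of Cox6a1 and 60 before that of Ndufa11, and the GABPA motif 102 before that of Atp5e. On the totals used here the levels of the 6 genes with the NRF1 motif did not move together. Cox6a1 was higher in all knockouts, Uqcrc1 lower, Atp5k and Ndufa11 (88.9 and 0 CPM against 31.7, 31.9 and 35.6 CPM) overlapped, Ndufaf4 had 2 control counts and Atp5g2 had no count. Under RLE factors Atp5k, Cox6a1, Ndufa11, Uqcrc1 and Ndufaf4 had log2 fold changes of 0.48, 2.91, 1.35, 0.71 and 0.69. The median of all tested genes was 1.49 there. These genes also lay above 0 under both TMM settings, so their directions depended on the scaling. Whether they moved together was not tested. A match of letters is no evidence of binding.

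Other mitochondrial genes were read beside the members from lists of the neighbouring pathways, and edgeR called no gene of any of them in either direction. DESeq2 called Sco1, an assembly factor, and Mrps25, a ribosomal protein, both lower (log2 fold change -4.24 and -4.40), beside 5.64% of all tested genes, and limma-voom called none. The counts at an unadjusted p under 0.05 below stand beside 1.95% of all tested genes higher and 11% lower. Of the 76 genes of the mitochondrial ribosome, 71 were tested, with 2 higher and 1 lower at an unadjusted p under 0.05, and they summed to 1318 and 667 CPM in controls against 1220, 1483 and 1003 CPM in knockouts. All 13 genes of the tricarboxylic acid cycle were tested, with 1 lower at an unadjusted p under 0.05, and summed to 444 and 597 CPM against 290, 549 and 173 CPM. Protein import genes (18 of 22 tested, 2 lower at an unadjusted p under 0.05) summed to 548 and 1083 CPM against 391, 462 and 316 CPM, all knockouts below both controls. This rested on Timm13, an import chaperone of the intermembrane space with 13 and 52 control counts, without which the list stood at 355 and 361 CPM against 299, 378 and 196 CPM and the groups overlapped. The 6 carriers and porins, which move ADP, ATP and phosphate, overlapped at 163 and 249.98 CPM against 265, 478 and 96.0 CPM.

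Cyc1, the cytochrome c1 of complex III that the symbol prefixes leave out, had 74.1 and 55.6 CPM in controls and 61.8, 69.5 and 37.7 CPM in knockouts, and Cycs, cytochrome c itself, had 7, 4 and 14 counts in the knockouts and none in the controls. Of 21 assembly factors outside the prefixes 14 were tested, with 2 lower at an unadjusted p under 0.05. Of 12 regulators 8 were tested and none had an unadjusted p under 0.05. They had 28 counts in control 1 and 2 in control 2, among them 3 and 0 for Nrf1, 3 and 0 for Gabpa and 9 and 0 for Esrra, and Ppargc1a, the coactivator that drives mitochondrial biogenesis, had 1, 5 and 0 knockout counts and none in the controls. The 3 further ATP synthase genes summed to 74.1 and 0 CPM, from 5 control counts, against 80.5, 118 and 83.1 CPM, all knockouts above both controls, with a pooled ratio of 2.64 (1.13 to 8.15). Among them the inhibitor Atpif1 had 29.6 and 0 CPM against 12.4, 46.2 and 13.2 CPM.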

How the data were processed

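RNA of primary acinar cells was sequenced in 5 libraries; per the labels' protocols, poly(A) RNA was captured and the TruSeq RNA v2 kit, which keeps no strand information, was used. Deposited were raw whole-number counts of reads for each of 23284 gene symbols. Per the submitters' processing notes, Cuffdiff 2.2.1.5, Cuffnorm 2.2.1.2, HTSeq 0.9.1 and TopHat2 2.1.1 were used with the build mm9. The role of each tool, the annotation, the strand setting and the handling of reads with several matches were not given in the sources used here.

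Library sizes were the totals without Rn45s and Lars2, with no further factor, for CPM and for the test alike. edgeR 4.0.16 in R 4.3.3 (glmQLFit with robust estimation, glmQLFTest, two-sided, group as the only term, filterByExpr) tested 8291 genes, with Benjamini-Hochberg adjustment over all of them and a threshold of 0.05; limma 3.58.1 (voom) and DESeq2 1.42.0 were alternatives. Each SE of a fold change is its absolute value in log2 divided by the square root of the edgeR F statistic. It is therefore derived from the test and was not fitted separately. Sums, shares and ratios of pooled levels have exact 95% binomial intervals, which cover counting error only, and no test. A fold against a group without counts is a bound on 3 counts in both controls together. Lengths, shared 50-base words and coding sequence came from GENCODE M21 (all 92 members matched by symbol; 1 transcript per gene), promoters from RefSeq; both are of GRCm38, not of the build of the counts.

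The members and the lists were chosen with earlier results of these data known, so no p-value is given over a list. Named genes were, for each complex, the 4 with the highest mean of both group means (edgeR called none on these totals), Sdha to Sdhd, the subunit c genes, Atp5d, isoform pairs of complex IV, Ndufa4 and Ndufa4l2; all other genes were picked once their values had been seen. The alternatives comprised other scalings (TMM, RLE, upper quartile, totals without digestive enzymes), filters, tools, the replicate number as a block, and leaving out libraries. Added after seeing the data were sums without Atp5e, Sdhd or Timm13 and a higher level for the length comparison.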

Additional observations from a re-analysis of the deposited data

How the results depend on the processing

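The depth of the controls limits all results: 1 count was worth 14.8 and 13.9 CPM there, and 15 and 6 of the 92 members had 10 or more counts. No setting called a member lower.

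Over all genes, the calls were 16 higher and 133 lower. They were 5 and 27 with TMM on all symbols, 147 and 71 with TMM without Rn45s and Lars2, 33 and 244 on totals without digestive enzymes, 43 and 468 with DESeq2, and 0 and 43 with limma-voom. Lower calls were 81 with RLE, 354 with upper quartile factors, 898 with no filter and 388 with 1 CPM in 2 libraries. Members called higher were 10, 1, 2 and 2 with TMM without Rn45s and Lars2, RLE, totals without enzymes and DESeq2. The members' median log2 fold change was 3.31 and 3.36 under both TMM settings, where that of all genes was 2.05 and 1.93.

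On totals of all deposited counts, which include Rn45s, the log2 ratio of group means was 2.45 for all members and 2.98, 2.13, 2.38, 2.89 and 1.85 for complexes I to V. On totals without enzymes it was 0.76 for all members, 1.34 for complex I, 0.74 for III and 0.96 for IV, and without Sdha it was 0.35 for complex II. The cause of these shifts was not tested beyond the change of total or member.

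Deviations of libraries with the same replicate number correlated at -0.0075 and 0.0127. With 2 controls their deviations mirror each other and rest on few counts, so these values cannot show whether the number pairs the libraries. With the number as a replicate block, 4 genes were higher and 5 lower, and no member.

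Leaving out each library in turn gave 0 to 19 genes higher and 4 to 378 lower, 0 members in each case, and a members' median of 0.88 to 6.67. The log2 ratio ranged from -0.16 to 0.73 for all members, 0.36 to 1.33 for complex I, -0.55 to 0.04 for II, -0.23 to 0.65 for III, 0.34 to 0.66 for IV and -0.85 to 0.53 for V. Without control 1 it was 0.73 for all members, 1.33 for complex I, 0.65 for III and 0.53 for V, and without control 2 it was 0.36 for complex I. Without control 1 the sign of 9 of 28 named genes turned, Atp5e and Atp5a1 among them. Of the 28, Cox5a, Cox7a2l and Cox7b passed the threshold under TMM without Rn45s and Lars2 (adjusted p 0.0446, 0.0495 and 0.0494), and no other setting changed a call. With a level of at least 20 CPM the correlation of the knockout 3 ratio with length was -0.53 (n = 60), in place of -0.58.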
